A study of Mus musculus with 9 samples.

Results

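Genes of the synaptic vesicle and its exocytosis were followed through the making of induced neurons from mouse embryonic fibroblasts (MEFs). The set was 44 genes taken by symbol from 30406 gene identifiers present in the feature tables of all 9 libraries. They comprised 6 SNAREs and proteins that recycle them, 11 synaptotagmins and relatives, 7 complexins and priming or active zone proteins, 8 vesicle membrane and vesicle cluster proteins, 4 Rab3 proteins, 5 vesicular transmitter transporters and 3 endocytic proteins.

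A neuron releases transmitter when a vesicle fuses with the plasma membrane at the active zone. SNARE proteins on both membranes zip together to drive the fusion, synaptotagmins sense calcium, complexins clamp and assist the SNAREs, and large scaffold proteins hold the vesicle and the calcium channel side by side. Afterwards NSF pulls the SNAREs apart, and clathrin adaptors, amphiphysin and dynamin retrieve the membrane for refilling by transmitter transporters. Acquiring this machinery is part of what makes a reprogrammed fibroblast a working neuron, although other secretory cells use relatives of the same proteins.

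The MEFs were WT, Per1-/- or Per2-/-, where Per1 and Per2 encode repressors of the circadian clock. Per the study's methods the knockout mice carried the alleles Per1 tm1Drw and Per2 tm1Drw on a B6.129 background. All 9 cultures, WT included, had been transduced by lentivirus with a set of reprogramming factors under doxycycline control, among them Brn2 (also Pou3f2) and Myt1l, and no untransduced culture was analysed here. Single cells were captured on days 4, 7 and 10 with a 10x Genomics 3′ kit, which counts unique molecular identifiers (UMI), giving 1 library for each genotype and day. No label says whether the libraries came from separate animals, so p-values measure only the spread between these 9 libraries. In the comparisons of days the 3 genotypes stood as repeats, and in those of genotypes the 3 days did.

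The libraries held 126625215 to 353198559 UMI. The WT day 10 library stood apart with a median of 3552 UMI per barcode, against 16135 to 25795 in the other 8. The 3 day 10 tables had been written by a different Cell Ranger version from the others (6.0.0 against 4.0.0 in the file headers), so day 10 and that version cannot be told apart. Between 13 and 365 barcodes were shared by any pair of libraries, and leaving out every shared barcode left 41, 41, 23, 15 and 0 calls in the class, day and genotype comparisons below that had 41, 41, 23, 15 and 0. The 3′ tags of Per1 were not lower in the libraries labelled Per1-/- (9.10 to 10.2 UMI per 1000000, against 6.38 to 7.64 in WT), and those of Per2 were 5.0 to 6.36 in the libraries labelled Per2-/- against 2.63 to 2.95 in WT. A 3′ tag outside the deleted part does not check a deletion, and the position of the deletions relative to the tags is not given in the sources used here. The study checked the knockouts on protein by western blot, which was not analysed here. After filters 73557 cells in 34 clusters remained, of which 7470 were neuron-like, 43161 fibroblast-like and 6437 macrophage-like. These classes were named from markers such as Tubb3, Map2 and Stmn2, Col1a1 and Pdgfra, or Csf1r and C1qa. A further 2 clusters with 15 and 13 of the 20 neuron markers stayed unnamed, 1 of 637 cells where 71.9% of barcodes scored as doublets and 1 of 154 cells with a median of 4591 UMI. The members and the other genes of the pathway were kept out of clustering and of every marker list.

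Upstream sequence is shown for 4 members whose messages rose in neuron-like cells at both steps between days, as described further on, because they are textbook neuronal genes and differ in whether their promoters hold CAGCTG, a form of the E-box, which basic helix-loop-helix proteins bind. Each runs 5′ to 3′ toward the gene, from 250 bases before the RefSeq start (build GRCm38.p6). It stops at that start for Cplx1 and, for the other genes, earlier, at the gene's first annotated base. Capitals mark CAGCTG, which reads the same on both strands. Cplx1 lies at chr5:108550028-108550277 on the minus strand, with the first base of the motif 82 bases before the start. Sv2a lies at chr3:96180977-96181150 on the plus strand, with the motif 229 bases before it. Syp at chrX:7638330-7638470 on the plus strand and Syn1 at chrX:20921005-20921168 on the minus strand had none.
Cplx1: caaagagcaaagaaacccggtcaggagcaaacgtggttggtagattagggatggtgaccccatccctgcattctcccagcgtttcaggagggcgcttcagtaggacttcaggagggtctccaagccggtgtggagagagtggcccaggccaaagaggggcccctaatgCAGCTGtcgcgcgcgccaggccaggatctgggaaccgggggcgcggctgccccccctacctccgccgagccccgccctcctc
Sv2a: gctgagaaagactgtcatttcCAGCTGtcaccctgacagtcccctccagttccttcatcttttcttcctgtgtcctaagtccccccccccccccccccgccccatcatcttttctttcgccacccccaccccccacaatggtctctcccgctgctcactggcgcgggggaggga
Syp: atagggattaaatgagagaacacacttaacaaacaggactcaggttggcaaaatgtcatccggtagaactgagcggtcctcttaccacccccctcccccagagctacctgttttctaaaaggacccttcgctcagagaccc
Syn1: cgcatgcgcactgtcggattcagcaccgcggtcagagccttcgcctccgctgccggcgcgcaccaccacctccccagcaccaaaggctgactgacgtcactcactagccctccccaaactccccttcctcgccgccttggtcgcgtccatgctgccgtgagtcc
Of the 44 members, 35 matched the promoter table by symbol (windows of 250 bases before to 50 after a RefSeq start). CAGCTG was present in the windows of 11 of these 35 genes (31.4%), namely Amph, Bsn, Cplx1, Cplx2, Rab3a, Rab3c, Slc18a2, Stx1a, Sv2a, Syt1 and Syt6, and in those of 18.3% of all 27025 genes in the table. GGACAGC, part of the RE1 element bound by the neuronal repressor REST, was present on either strand in 3 members (8.57%), which were Slc18a2, Syt6 and Unc13a, and in 7.59% of all genes. A match describes the letters of the window and says nothing of whether a factor binds there. Only exact matches were counted, so a window without GGACAGC may still hold an RE1 element with other letters.

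Most members were higher in neuron-like cells than in fibroblast-like cells of the same library. The edgeR quasi-likelihood test on UMI summed per class and library called 36 of the 43 members tested higher and 5 lower at an adjusted p under 0.05, while over all 17225 genes tested 79.7% were called, 38.5% higher and 41.2% lower. Of the 36, Cplx1, Slc17a6, Slc18a3 and Syt2 passed the filter on low counts through their neuron-like sums alone, so their direction was fixed beforehand. The genes that drew the clusters are among those 17225. The median log2 fold was -0.01 for all genes and 3.72 for the 43 members. The latter includes Cplx1, Slc17a6, Slc18a3 and Syt2, and also Slc17a7, which passed the filter in the same way. Against macrophage-like cells, 39 of 42 members were called higher and 2 lower (Nsf, and Slc32a1, which had 0 UMI in neuron-like cells). Of the 39, 20 passed the filter through their neuron-like sums alone and are no result. The background was 85.0% called, 46.0% higher and 39.1% lower. The median log2 fold of all genes was 0.15. That of the 42 members, 5.10, includes the 20 and Slc32a1, so it is not read against that of all genes. Scaled by total UMI alone, without the TMM factors, 9609 genes were higher and 4813 lower than in fibroblast-like cells, against 6626 and 7100 with them, and the median log2 fold of all genes became 0.47. Against macrophage-like cells the split became 9476 and 4081, from 7005 and 5954. The 8 members of smallest p against macrophage-like cells were Syp, which is among those 20, Napb (log2 fold 3.80 ± 0.10, edgeR adjusted p = 3.2e-12), Syt11 (5.89 ± 0.16), Vamp2 (3.16 ± 0.10), Rims2 (6.24 ± 0.21), Stx1a (5.03 ± 0.17), Rab3a (5.12 ± 0.18) and Syt1 (7.65 ± 0.31). The members together took 2529 to 4917 UMI per 1000000 (CPM) in neuron-like cells, 285 to 360 in fibroblast-like cells and 155 to 201 in macrophage-like cells. The 16 fibroblast and 16 macrophage markers summed to 512 to 946 and 22.5 to 202 CPM in neuron-like cells, and the 20 neuron markers to 134 to 285 in fibroblast-like and 29.1 to 192 in macrophage-like cells. Their part in the member levels was not tested. Among 58 further genes of the pathway, 38 of 54 tested were higher and 15 lower than in fibroblast-like cells, and the lower ones included Snap23, Vamp8 and Stx4a, SNAREs of general secretion.

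**Figure D1:**
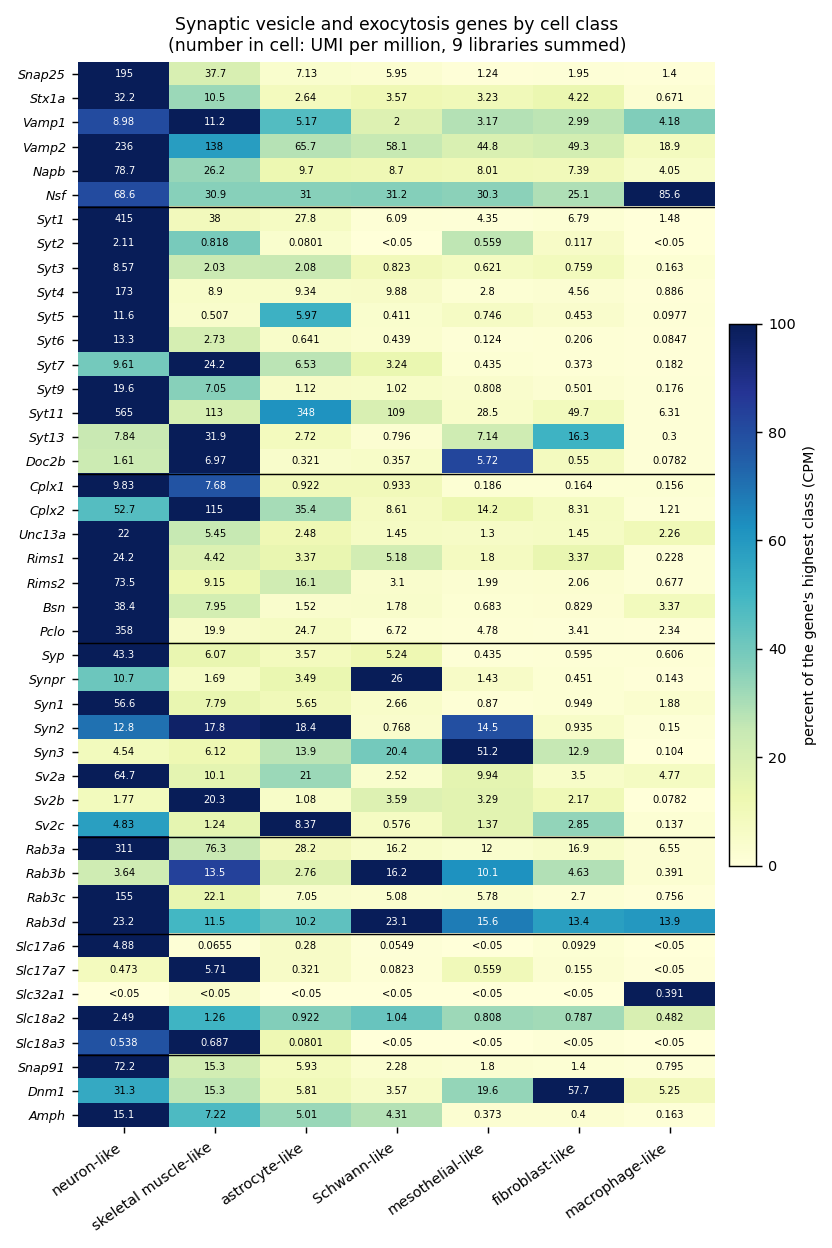
Level of each of the 44 members in 7 cell classes, with the 9 libraries summed (number in each cell: CPM). Colour gives the level as a percent of the gene's own highest class, and horizontal lines separate the roles. The neuron-like column is darkest for 28 members, the skeletal muscle-like column for 8. The shares of all genes highest in these classes are not given, and days enter the sums of each class unequally.

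Among the SNAREs, Snap25, the plasma membrane partner that gives 2 of the helices of the fusion complex, separated the classes most. Its level in neuron-like cells was 134, 144 and 145 CPM on day 4 in WT, Per1-/- and Per2-/- cultures, 230.3, 223 and 250.2 on day 7, then 325, 298 and 311 on day 10. In fibroblast-like cells it was 0.732 to 5.40 CPM and in macrophage-like cells 0.265 to 4.46, with no overlap. The log2 fold was 6.58 ± 0.25 (SE) against fibroblast-like cells (edgeR adjusted p = 2.6e-10), the highest of the 43. In both of the other classes the highest value was that of the Per2-/- day 10 library.

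Syntaxin 1A (Stx1a), which anchors the complex in the plasma membrane, was at 29.1, 26.2 and 33.7 CPM on day 4, then 32.4, 36.5 and 36.1 on day 7, then 40.8, 37.7 and 40.4 on day 10 in neuron-like cells (same order of genotypes). Fibroblast-like cells had 3.72 to 4.49 CPM (log2 fold 2.54 ± 0.09, edgeR adjusted p = 1.7e-10). Synaptobrevin 2 (Vamp2), the SNARE of the vesicle itself, was at 175, 219 and 190 CPM on day 4, then 234, 270 and 240.5 on day 7, then 336, 344 and 351 on day 10. Fibroblast-like cells also had Vamp2, at 36.4 to 66.8 CPM, and its log2 fold was 1.91 ± 0.08. Its relative Vamp1 was at 8.63, 10.6 and 8.34 CPM on day 4, then 10.5, 6.78 and 7.51 on day 7, then 8.16, 8.32 and 7.63 on day 10, with the days overlapping. Vamp1 had its highest level in skeletal muscle-like cells, at 9.95 to 13.8 CPM. Nsf, the ATPase that takes spent SNARE complexes apart in every cell, was the one member of this role that was higher in macrophage-like cells, at 76.4 to 95.7 CPM against 58.7 to 91.0 in neuron-like cells (log2 fold -0.82 ± 0.08, edgeR adjusted p = 8.6e-07). The ranges overlapped, the difference was tested within libraries, and scaled by total UMI alone the log2 fold was -0.21 (adjusted p = 0.035). Napb, the neuronal form of the NSF adaptor, was at 60.9, 67.2 and 74.3 CPM on day 4, then 94.8, 87.2 and 93.1 on day 7, then 135, 95.2 and 89.4 on day 10 in neuron-like cells (log2 fold 3.07 ± 0.07 against fibroblast-like cells).

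The calcium sensors divided by family member. Syt1, the sensor of fast synchronous release, was at 370.3, 373 and 386 CPM on day 4, then 457, 416 and 508 on day 7, then 516, 491 and 436 on day 10 in neuron-like cells. Fibroblast-like cells had 3.36 to 18.1 CPM, the top value again in Per2-/- day 10 (log2 fold 5.76 ± 0.25, edgeR adjusted p = 8.4e-10). Syt11, a synaptotagmin that does not bind calcium, was at 525, 544 and 574 CPM on day 4, then 639, 607 and 609 on day 7, then 677, 574 and 521 on day 10 in neuron-like cells, and at 43.0 to 68.1 in fibroblast-like cells. The smallest adjusted p among the 43 members tested was that of Syt11 (log2 fold 3.05 ± 0.06, edgeR adjusted p = 7.3e-12). Its pooled level in astrocyte-like cells was 348 CPM.

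Syt4, a calcium-insensitive synaptotagmin of dense-core vesicles, and Syt5, Syt6, Syt7 and Syt9 had log2 folds of 4.29 to 5.45 over fibroblast-like cells. Syt2, the fast sensor of hindbrain and spinal synapses, stayed at 0.302 to 4.12 CPM in neuron-like cells and had 0 UMI in macrophage-like cells of all 9 libraries. Syt9 was at 14.4, 19.5 and 20.9 CPM on day 4, then 21.7, 17.1 and 20.9 on day 7, then 20.6, 20.8 and 24.1 on day 10, with the days overlapping. Syt13, an atypical synaptotagmin, was called lower in neuron-like cells, the other way from the rest of its family. It was at 6.79, 7.40 and 5.09 CPM on day 4, then 9.78, 4.42 and 8.61 on day 7, then 15.7, 8.57 and 9.68 on day 10 in neuron-like cells and at 10.6 to 28.3 in fibroblast-like cells (log2 fold -1.47 ± 0.22, edgeR adjusted p = 5.8e-05). Of its 17070 UMI in the fibroblast-like class, 5872 (34.4%, and 21.5% to 51.3% per library) lay in a cluster of 2496 cells led by Wnt4, where it reached 93.2 to 196 CPM and where Sv2b was at 22.2 to 56.3. Without that cluster and 1 led by Reln and Scn1a, Syt13 remained lower in neuron-like cells, whereas Sv2b turned to 1.31 higher on the log2 scale.

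Of the complexins, Cplx1 was at 4.51, 5.03 and 4.86 CPM on day 4, then 12.2, 11.5 and 13.2 on day 7, then 21.5, 24.2 and 21.6 on day 10 in neuron-like cells, against 0.0185 to 0.714 in fibroblast-like cells. Cplx2 was at 40.5, 51.7 and 51.6 CPM on day 4, then 64.2, 63.9 and 58.0 on day 7, then 53.8, 50.7 and 58.6 on day 10, against 6.74 to 10.7 in fibroblast-like cells (log2 fold 2.27 ± 0.10). The days did not overlap for Cplx1 and overlapped for Cplx2. All 5 priming and active zone genes were higher in neuron-like than in fibroblast-like cells. The scaffolds Pclo (piccolo) and Bsn (bassoon) had log2 folds of 6.47 ± 0.28 and 5.19 ± 0.11, Rims1 and Rims2, which tether vesicles and channels, 2.59 ± 0.09 and 4.90 ± 0.18, and the priming factor Unc13a 3.54 ± 0.15. Neuron-like levels of Pclo were 335 to 504 CPM. Bsn was at 29.97, 33.8 and 35.6 CPM on day 4, then 43.0, 45.4 and 42.1 on day 7, then 50.2, 44.5 and 51.3 on day 10. Rims1 was at 15.6, 17.2 and 16.5 CPM on day 4, then 31.6, 27.1 and 33.3 on day 7, then 42.3, 34.8 and 38.7 on day 10. For Rims1, and not for Bsn, the 3 days were fully separated. Rims2 was at 57.7, 70.6 and 73.9 CPM on day 4, then 81.9, 83.7 and 97.4 on day 7, then 87.7, 82.0 and 66.0 on day 10, with day 10 overlapping both earlier days.

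Vesicle membrane proteins split within families. Synaptophysin (Syp), the abundant membrane protein used to stain synapses, was at 15.4, 19.8 and 20.5 CPM on day 4, then 47.9, 47.4 and 68.7 on day 7, then 106, 88.3 and 108 on day 10, against 0.290 to 1.45 in fibroblast-like cells (log2 fold 5.97 ± 0.23, edgeR adjusted p = 3.6e-10). Synapsin 1 (Syn1), which ties vesicles into clusters, was at 31.9, 34.4 and 35.3 CPM on day 4, then 77.0, 79.2 and 75.7 on day 7, then 113, 94.7 and 102 on day 10 (log2 fold 5.72 ± 0.26). For both genes the 3 days were fully separated in neuron-like cells. Syn2 and Sv2a, the vesicle glycoprotein bound by levetiracetam, were also higher than in fibroblast-like cells (3.65 ± 0.15 and 3.93 ± 0.24). The pooled level of Syn2 was highest in astrocyte-like cells, at 18.4 CPM (5.24 to 43.2 per library).

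Syn3, and Sv2b under the scaling and classes used, were called lower in neuron-like cells. Syn3 was at 4.70, 4.44 and 5.02 CPM on day 4 and at 2.20 to 6.08 over all days in neuron-like cells, and at 10.9 to 18.6 in fibroblast-like cells, without overlap (log2 fold -2.08 ± 0.14, edgeR adjusted p = 4.4e-08). Its pooled level was highest in mesothelial-like cells, at 51.2 CPM. Sv2b was at 1.36, 1.85 and 2.01 CPM on day 4, then 1.94, 0.589 and 1.60 on day 7, then 0.605, 2.69 and 2.38 on day 10 in neuron-like cells, and at 1.08 to 3.0 in fibroblast-like cells (log2 fold -0.76 ± 0.24, edgeR adjusted p = 0.013). These ranges overlapped, the call was lost when total UMI alone set the scale (-0.28, adjusted p = 0.31), and the sign turned without the 2 clusters named above (1.31, adjusted p = 0.0043). Sv2c, a form of basal brain regions, was at 1.60 to 11.5 and 2.16 to 4.01 CPM in these classes and was not called (0.27 ± 0.33, edgeR adjusted p = 0.46), although it was called when total UMI alone set the scale. The pooled level of Sv2c was highest in astrocyte-like cells, at 8.37 CPM (0.652 to 25.9 per library). Synpr, a synaptophysin relative, was higher in neuron-like than fibroblast-like cells (3.98 ± 0.27) and had its highest pooled level, 26.0 CPM, in Schwann-like cells.

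The small GTPases of the Rab3 family recruit vesicles to the release site. Rab3a was at 214, 209.7 and 228 CPM on day 4, then 387, 326 and 383 on day 7, then 510.2, 455 and 553 on day 10 in neuron-like cells, and at 14.3 to 23.6 in fibroblast-like cells (log2 fold 3.88 ± 0.16). The days did not overlap. Rab3c, a form found in brain, was at 108, 116 and 105 CPM on day 4, then 203, 159.7 and 229 on day 7, then 259, 243 and 205 on day 10, against 1.83 to 3.88 in fibroblast-like cells (5.53 ± 0.21). Rab3d, a form of exocrine and other secretory cells, was at 19.8 to 31.2 CPM against 11.0 to 16.6 in fibroblast-like cells (0.32 ± 0.10, edgeR adjusted p = 0.011; 0.80 when total UMI alone set the scale). Macrophage-like cells had 11.8 to 17.5 CPM, and there the call depended on the scale (0.08 ± 0.11, edgeR adjusted p = 0.51, but 0.69 ± 0.11, adjusted p = 7.6e-05, by total UMI alone). Rab3b was lower in neuron-like cells (-0.70 ± 0.19, edgeR adjusted p = 0.0047), a call lost when the total UMI alone set the scale (log2 fold -0.22, adjusted p = 0.26) or without the 2 clusters named above (-0.38, adjusted p = 0.084).

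The transporters that fill vesicles, and so set which transmitter a neuron can release, stayed low. Slc17a6 (VGLUT2, for glutamate) was at 3.30, 2.65 and 2.24 CPM on day 4, then 3.32, 2.95 and 4.05 on day 7, then 12.1, 8.81 and 15.01 on day 10 in neuron-like cells, with day 10 clear of the earlier days. Fibroblast-like cells had 0.00847 to 0.187 CPM. Slc18a2 (VMAT2, for monoamines) was at 1.65 to 4.39 CPM. Slc17a7 (VGLUT1, not called over fibroblast-like cells) and Slc18a3 (VAChT, for acetylcholine) had 0 to 0.838 and 0 to 1.19 CPM, on 0 to 24 and 0 to 34 UMI per library. Slc32a1, the transporter for GABA and glycine, had 0 UMI in neuron-like cells of every library. Macrophage-like cells held 60 UMI of it, at 0 to 1.10 CPM and none in 4 of the 9 libraries. It passed the filter in that comparison through the macrophage-like sums alone, so its direction was fixed beforehand and its place among the 2 members counted lower is no result.

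Of the endocytic members, Snap91 (AP180, the neuronal clathrin adaptor) and Amph (amphiphysin) had log2 folds of 5.48 ± 0.18 and 5.03 ± 0.27 over fibroblast-like cells. Snap91 was at 49.4, 52.9 and 51.0 CPM on day 4, then 92.8, 87.8 and 92.3 on day 7, then 147, 111 and 103 on day 10 in neuron-like cells, each day above the one before. Dnm1, the neuronal dynamin that cuts the vesicle free, was highest in fibroblast-like cells, at 50.7 to 66.1 CPM against 21.4 to 59.8 in neuron-like cells (-1.20 ± 0.17, edgeR adjusted p = 3.5e-05). In neuron-like cells Dnm1 was at 21.4, 21.5 and 25.01 CPM on day 4, then 38.2, 36.2 and 38.8 on day 7, then 59.8, 48.2 and 49.7 on day 10, while fibroblast-like cells had no such order of days.

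Skeletal muscle-like cells, 3083 in all and named from markers such as Myog and Acta1, held the highest pooled level of 8 members. The larger of their 2 clusters also showed 11 of the 20 neuron markers. Among the 8 were Slc17a7 and Slc18a3, which rested on few UMI in neuron-like cells. Pooled levels weigh each library by its UMI, and 4480 of the 7470 neuron-like cells were of day 4. The share of all genes with their highest level in skeletal muscle-like cells is not given. Cplx2 was at 42.8, 64.7 and 67.6 CPM on day 4, then 91.8, 95.1 and 146 on day 7, then 243, 213 and 287 on day 10 in this class. Syt7, a slow calcium sensor, was at 10.9 to 18.2, 17.2 to 33.4 and 30.4 to 56.5 CPM on these days. Snap25 was at 10.2 to 23.5, 36.7 to 72.6 and 48.8 to 86.2 CPM. The day 10 libraries lay above the day 4 libraries for these 3 genes, which were chosen after their values were seen and were not tested.

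Of 41 members tested in neuron-like cells, 23 were called higher on day 7 than on day 4, 18 were not called and 0 were lower (edgeR adjusted p under 0.05; 25 had an unadjusted p under 0.05, as did 35.3% of all genes), over a background of 22.9% of 14278 genes called, 11.8% higher and 11.1% lower. DESeq2, the other tool run, called 0 members lower as well, and over all 14278 genes it called 1374 higher and 1197 lower. The median log2 fold was 0.39 for the members and -0.00 for all genes, and 19 of 52 other pathway genes were higher and 0 lower. The lowest day 7 library lay above the highest day 4 library for each of Snap25, Vamp2, Syt4, Syt5, Cplx1, Syp, Syn1, Sv2a and Rab3a. The share of all 14278 genes that separate days in this way is not given. The same holds wherever levels or shares of cells are said not to overlap between days, so such separation is not shown to be particular to the members. In the neuron-like class, the 20 neuron markers together also went from 4846 to 5670 CPM on day 4 to 7451 to 9274 on day 7 and to 9623 to 11450 on day 10. In the same sums the 16 macrophage markers of WT, Per1-/- and Per2-/- cultures went from 26.3, 61.7 and 22.5 CPM on day 4 to 37.3, 115 and 124 on day 7, then to 47.8, 108 and 202 on day 10. The 16 fibroblast markers went from 946, 916 and 631 CPM to 673, 512 and 742, and then to 519, 521 and 807. The part of these markers in the changes of the members was not tested.

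By adjusted p the leading genes were Sv2a, Syt4, Syp, Syn1, Cplx1, Snap25, Rab3a and Syt5. Sv2a was at 31.0, 35.3 and 37.3 CPM on day 4 and 91.0, 87.2 and 98.9 on day 7 (log2 fold 1.41 ± 0.10, edgeR adjusted p = 6.8e-06). Syt4 went from 72.4, 80.7 and 60.9 to 219, 242 and 301 CPM (1.82 ± 0.14). No library of day 4 reached the lowest of day 7 for either. Syt5 went from 3.54, 5.27 and 4.71 to 18.9, 10.6 and 20.6 CPM (1.87 ± 0.22). Syp rose by 1.54 ± 0.12, Syn1 by 1.17 ± 0.10, Cplx1 by 1.36 ± 0.14, Snap25 by 0.72 ± 0.08 and Rab3a by 0.73 ± 0.08 on the log2 scale (values per library above). The largest log2 fold was that of Sv2c, at 2.03 ± 0.25 from levels of 1.60 to 2.01 CPM.

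By role, 4 of 6 SNARE genes, 4 of 11 synaptotagmins and relatives, 5 of 7 complexin, priming and active zone genes, 5 of 8 vesicle membrane genes, 2 of 4 Rab3 genes and all 3 endocytic genes were higher on day 7. Neither of the transporters tested was. Syt1 missed the threshold (0.28 ± 0.09, edgeR adjusted p = 0.052), and Pclo (0.05 ± 0.13, adjusted p = 0.83) and Syt11 (0.16 ± 0.10, adjusted p = 0.27) had small folds from day 4 levels of 335 to 386 and 525 to 574 CPM. Without the WT day 4 library 15 members were called, and the share of all genes called in that fit is not given.

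The neuron-like class changed its make-up over these days. A cluster led by Lhx3 and Igfbpl1 held 4388 of the 4480 neuron-like cells on day 4, then 1321 of 1769 on day 7, then 116 of 1221 on day 10, and the rest lay in a cluster led by Scg2 and Vgf. Within the Lhx3 and Igfbpl1 cluster alone 26 members were higher on day 7 and 0 lower (10.0% of 13550 genes were called higher there), 23 of them being the 23 of the whole class. The others were Syt1 (0.35, edgeR adjusted p = 0.016), Syt6 (0.63, adjusted p = 0.0094) and Syt7 (0.58, adjusted p = 0.046).

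**Figure D2:**
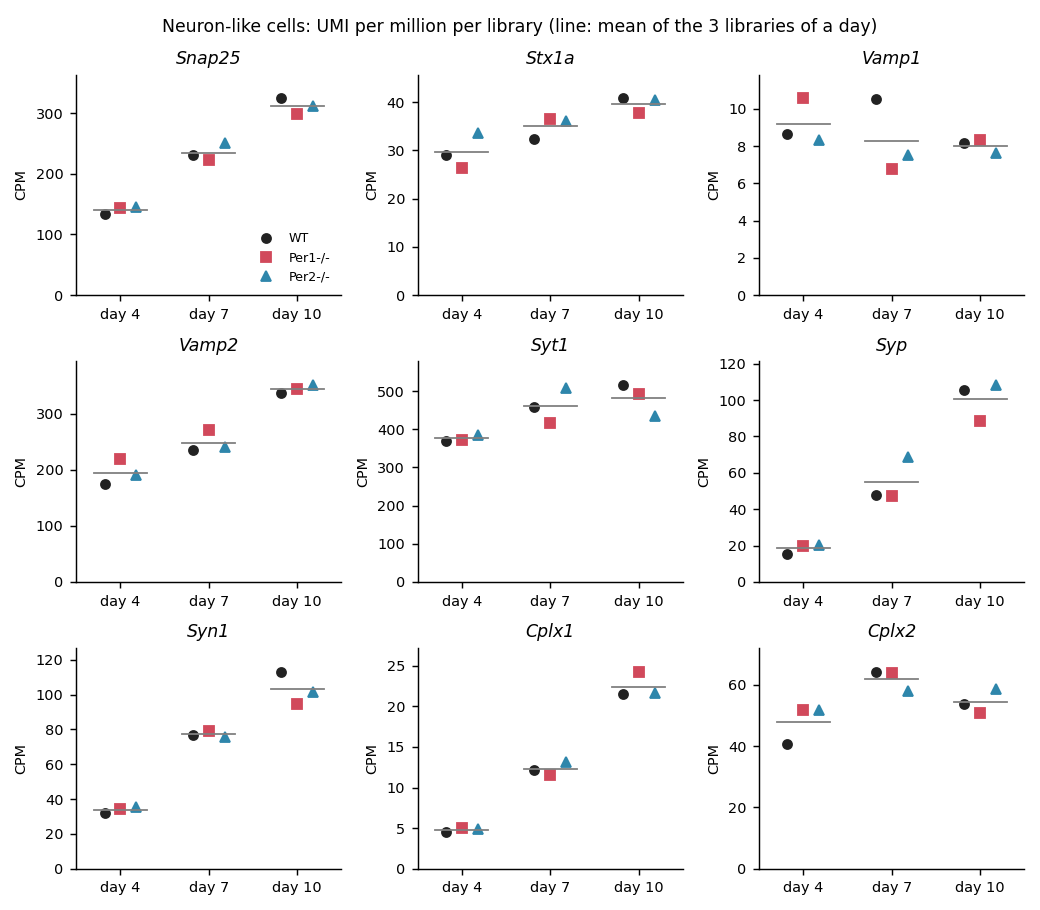
Levels (CPM, vertical axis from 0) of 9 members in neuron-like cells of each library on days 4, 7 and 10; circles, squares and triangles are WT, Per1-/- and Per2-/- cultures and the line is the mean of a day. Snap25, Vamp2, Syp, Syn1 and Cplx1 separate the 3 days, whereas Vamp1 and Cplx2 do not.

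From day 7 to day 10, 13 of 41 members were called higher and 2 lower in neuron-like cells, over a background of 14.1% called, 7.76% higher and 6.33% lower. Scaled by total UMI alone, 698 of all genes were higher and 1588 lower, against 1108 and 904. The median log2 fold was 0.33 for the members and -0.01 for all genes, and 12 of 52 other pathway genes were higher and 1 lower. The leading genes were Syp (0.97 ± 0.12, edgeR adjusted p = 0.00045), Slc17a6 (1.91 ± 0.25, adjusted p = 0.00064), Cplx1 (0.93 ± 0.14), Rab3a (0.56 ± 0.08), Vamp2 (0.56 ± 0.09), Snap25 (0.50 ± 0.08), Syn2 (1.03 ± 0.17) and Syn1 (0.51 ± 0.10). Syn2 was at 6.06, 8.17 and 8.57 CPM on day 4, then 14.8, 14.7 and 13.0 on day 7, then 28.4, 22.0 and 30.1 on day 10, so that none of the 3 days overlapped. Sv2a reached 138, 117 and 119.8 CPM on day 10 and Syt4 434, 364 and 363, both above day 7.

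The 2 genes called lower were Syt6 and Syn3, each on few UMI. Syt6 was at 15.2, 20.6 and 11.7 CPM on day 7, then 10.3, 10.3 and 6.07 on day 10 (-0.78 ± 0.17, edgeR adjusted p = 0.013), and its call was lost without WT day 7, Per1-/- day 7, Per1-/- day 10 or Per2-/- day 10 (adjusted p = 0.054 to 0.090). Syn3 was at 5.08, 5.60 and 6.08 CPM on day 7, then 3.93, 2.20 and 2.71 on day 10 (-0.87 ± 0.26, adjusted p = 0.044), on 9 to 33 UMI per library on day 10. Its call was lost without any one library other than WT day 10.

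Within the Scg2 and Vgf cluster alone, which held 448 cells on day 7 and 1105 on day 10, 8 of 37 members were called, all higher, of which Syt6 passed the filter through day 10 alone (9.98% of 11729 genes were called there, 6.68% higher). Snap25 (0.43), Cplx1 (1.51), Syn2 (1.10), Slc17a6 (2.11) and Syp (0.74) kept their calls, and Cplx2 and Rab3b gained them. Slc17a6 rested there on 7, 4 and 17 UMI on day 7 in WT, Per1-/- and Per2-/- cultures, and Rab3b on 12, 0 and 16. The other 8 of the 13 members called higher in the whole class were not called there. Among these, Vamp2 (0.34, edgeR adjusted p = 0.094), Snap91 (0.31, adjusted p = 0.15), Rims1 (0.28, adjusted p = 0.32), Sv2a (0.19, adjusted p = 0.41), Rab3a (0.15, adjusted p = 0.55) and Dnm1 (0.13, adjusted p = 0.68) kept their direction. Syt4 (-0.33, edgeR adjusted p = 0.15) and Syn1 (-0.09, adjusted p = 0.77) had the opposite sign. Syt6, lower in the whole class, had 1, 0 and 6 UMI on day 7 and 26, 27 and 73 on day 10 within the cluster, and its direction was fixed by the filter. Over the 9 libraries summed, Syt6 was at 16.4 CPM in the Lhx3 and Igfbpl1 cluster and 4.75 in the Scg2 and Vgf cluster.

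The 12 members called higher at both steps came from 6 of the 7 roles, and 3.50% of all 14278 genes were called higher at both. They were Snap25, Vamp2, Syt4, Cplx1, Rims1, Syp, Syn1, Syn2, Sv2a, Rab3a, Snap91 and Dnm1. Within the Scg2 and Vgf cluster, 4 of the 12 (Snap25, Cplx1, Syp and Syn2) were called for day 10 against day 7. Another 11 were higher only by the test of day 7 against day 4, 1 (Slc17a6) only by that of day 10 against day 7, and 15 were called at neither step, with no test of the difference between steps. Of the 12, 9 matched the promoter table, and CAGCTG was present for Cplx1, Sv2a and Rab3a and GGACAGC for 0. That 0 counts exact matches and does not exclude RE1 elements with other letters.

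In fibroblast-like cells 0 of 42 members passed the test from day 4 to day 7 (background 2.30%). At an unadjusted p under 0.05 there were 7, against 19.8% of all genes, and DESeq2 called 4, against 8.44% of all genes. The 3 members of smallest p were Syn2 (0.95 ± 0.26, edgeR adjusted p = 0.11), Napb (0.45 ± 0.13, adjusted p = 0.12) and Cplx1 (1.77 ± 0.52, adjusted p = 0.12). Of these, Cplx1 passed the filter on low counts in fibroblast-like cells through its day 10 sums alone. From day 7 to day 10 the 1 call was Syn2, at 0.873, 0.576 and 0.673 CPM on day 7, then 1.89, 2.59 and 1.57 on day 10 (1.47 ± 0.25, edgeR adjusted p = 0.041; background 1.26%). That call was lost without any one library other than Per1-/- day 4. Most fibroblast-like cells of day 10 lay in clusters led by Igf2 and Adh1 or by Pcolce2 and Mia that were nearly empty earlier, and those of days 4 and 7 in other clusters, among them 1 led by Tnn and Msx1 and 1 led by Pax9 and Tnmd.

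The difference between the classes was tested itself, within libraries. From day 4 to day 7, 8 of 43 members rose more in neuron-like than in fibroblast-like cells and 0 rose less, over a background of 17.6% called, 7.59% higher and 9.98% lower. They were Sv2a, Dnm1, Syt4, Sv2c, Rab3a, Nsf, Syt5 and Syp. From day 7 to day 10 the change was more positive in neuron-like than in fibroblast-like cells for Dnm1 (0.66 ± 0.09, edgeR adjusted p = 0.0057) and Nsf (0.41 ± 0.07, adjusted p = 0.015), of which Nsf was not itself called in neuron-like cells (0.18 ± 0.09, adjusted p = 0.23), over a background of 4.05% called, 2.25% higher and 1.80% lower. The call of Nsf was lost without TMM factors or without WT day 7, and with 1 library left out 1 to 4 members were called at this second step. For Snap25 the difference was 0.52 ± 0.49 at the first step (edgeR adjusted p = 0.52), with a 95% interval of -0.56 to 1.60.

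**Figure D3:**
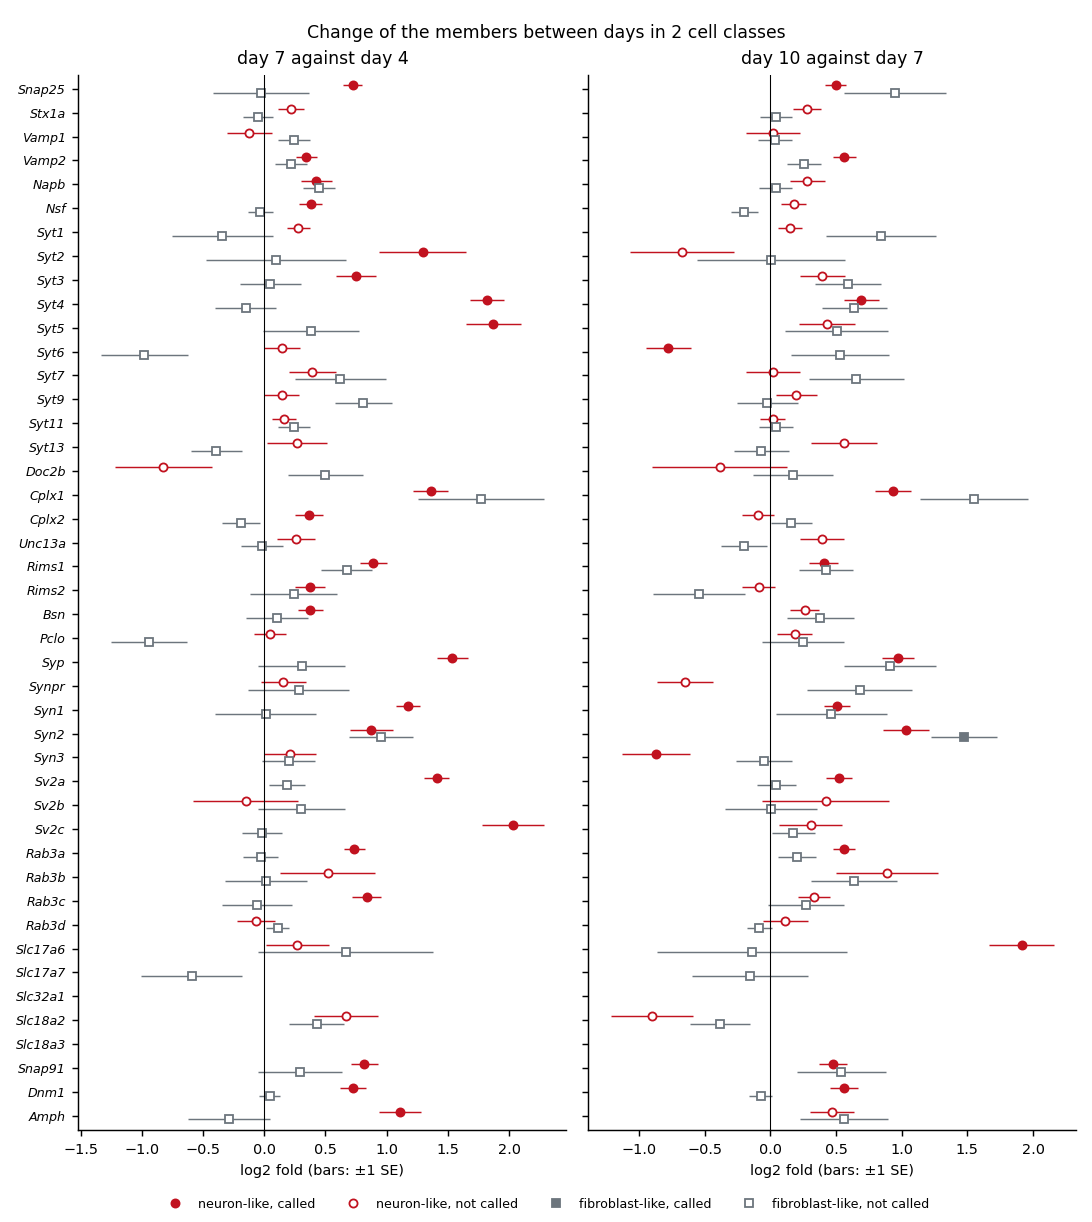
Log2 fold of each member between days in neuron-like cells (red circles) and fibroblast-like cells (grey squares), with bars of 1 SE; filled symbols passed an edgeR adjusted p under 0.05. In the left panel 23 red symbols and 0 grey symbols are filled, in the right panel 15 and 1. Cplx1 in fibroblast-like cells passed the filter on low counts through day 10 alone.

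No member passed the test between genotypes in neuron-like cells when genes of low counts were filtered out. Per1-/- against WT, Per2-/- against WT and Per1-/- against Per2-/- gave 0 of 41 members each, and also 0 of 14278 genes (background 0.0% in each) by edgeR. At an unadjusted p under 0.05 there were 4, 3 and 5 members and 564, 627 and 913 genes. DESeq2 called 0 members in each, and 9, 15 and 31 genes. The 2 comparisons against WT share the WT libraries.

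The 3 members of smallest p for Per1-/- against WT were Rab3b, Syt6 and Unc13a. Rab3b was at 1.99, 5.45 and 11.8 CPM on days 4, 7 and 10 in WT, 2.24, 1.18 and 2.45 in the libraries labelled Per1-/-, and 3.17, 4.39 and 6.81 in those labelled Per2-/- (Per1-/- against WT -1.05 ± 0.41, edgeR adjusted p = 1.0). Without the filter on low counts Rab3b was called for Per1-/- against WT (-1.05, edgeR adjusted p = 0.046) and Syt6 for Per1-/- against Per2-/- (0.66). Its Per1-/- values rested on 4 to 64 UMI and overlapped with WT. Syt6 and Unc13a had log2 folds of 0.38 ± 0.16 and -0.39 ± 0.16. For Per2-/- against WT the 3 were Syp (0.33 ± 0.12), Sv2c (0.65 ± 0.24) and Syt2 (0.86 ± 0.37), and for Per1-/- against Per2-/- they were Syt6 (0.67 ± 0.16), Sv2c (-0.74 ± 0.25) and Rab3a (-0.22 ± 0.08).

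The intervals for well-counted members cover only the spread between these 9 libraries and do not bound a genotype effect. Genes of the Y chromosome summed to 85.1, 72.5 and 39.9 CPM on days 4, 7 and 10 in neuron-like cells of WT. They summed to 155, 279 and 261 in Per1-/- and to 141, 60.3 and 70.3 in Per2-/-. All Per1-/- values lay above all WT values, so in that comparison genotype and Y-linked level cannot be told apart. For Snap25 the 95% interval of the log2 fold was -0.19 to 0.16 for Per1-/- against WT and -0.10 to 0.24 for Per2-/- against WT. For Syt1 these were -0.27 to 0.14 and -0.20 to 0.21, and for Syn1 -0.24 to 0.18 and -0.21 to 0.21. Syp had -0.23 to 0.31 and 0.07 to 0.59, and Cplx1 -0.21 to 0.41 and -0.22 to 0.38. Over all 41 members the median log2 fold was -0.03, 0.07 and -0.10 in the 3 comparisons.

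**Figure D4:**
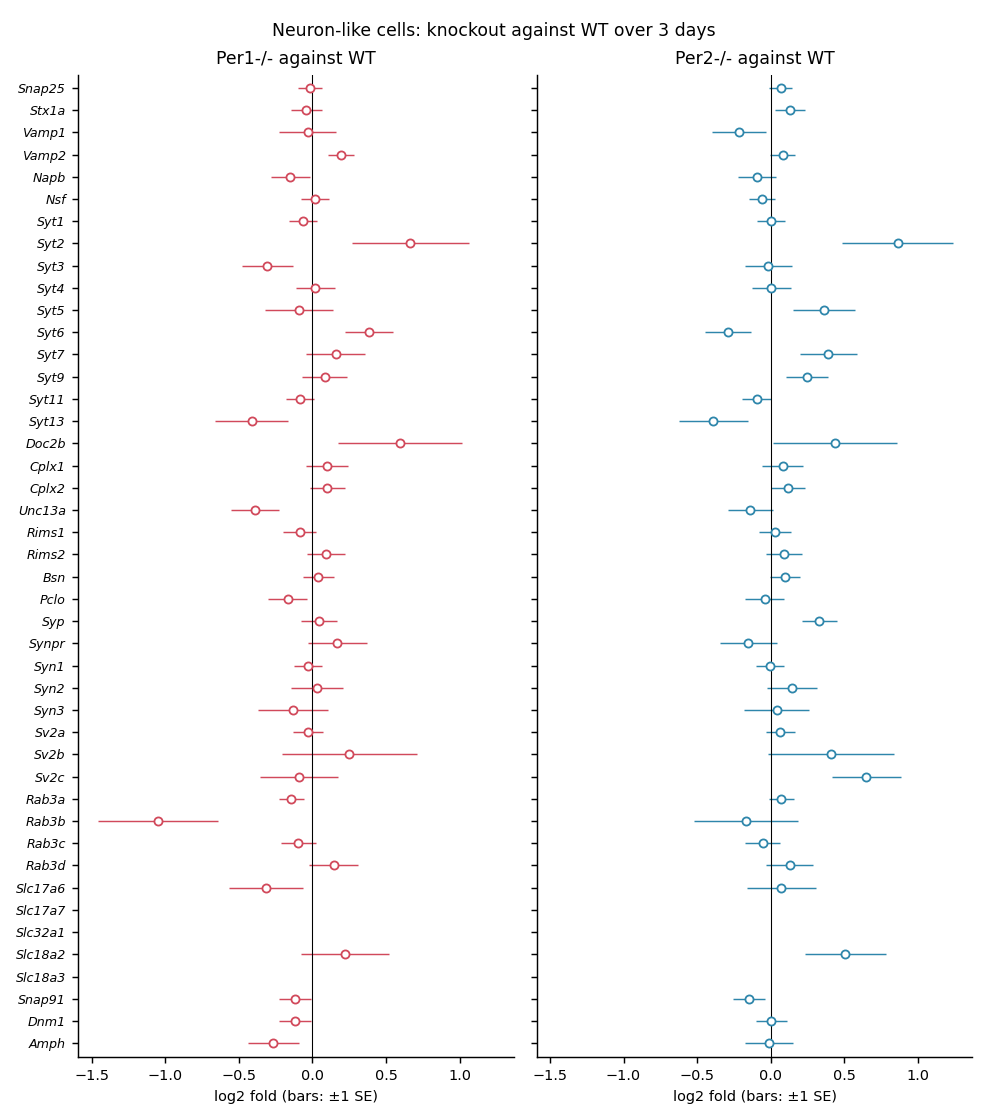
Log2 fold of each tested member in neuron-like cells, Per1-/- (left) and Per2-/- (right) against WT over the 3 days, with bars of 1 SE; open symbols did not pass an edgeR adjusted p under 0.05. All 41 symbols are open in both panels, and the points farthest from 0 are Rab3b (-1.05, left) and Syt2 (0.86, right).

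Detection in single cells followed the levels. With every cell thinned to 5000 UMI, which kept 7042 of 7470 neuron-like cells and left out 15 to 107 per library, Snap25 had a UMI in 47.0%, 47.4% and 48.9% of them on day 4 in WT, Per1-/- and Per2-/- cultures, 62.2%, 59.4% and 64.5% on day 7, then 75.7%, 73.9% and 71.5% on day 10. The exact 95% interval of the smallest of these samples, WT day 10, was 68.0% to 82.2%. Macrophage-like cells, which should lack the gene, had 0 to 2.24% and fibroblast-like cells 0.371 to 2.65%. Median depths before thinning were 8578 to 16201 UMI in neuron-like and 18327.5 to 34871 in macrophage-like cells, and without thinning the shares for Snap25 were 68.0% to 93.6% and 0.662% to 7.71%.

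Syt1 had a UMI in 76.7% to 90.8% of thinned neuron-like cells per library and in 0 to 2.55% of macrophage-like cells. Syp was found in 7.38%, 9.45% and 10.7% on day 4, then 19.5%, 24.4% and 26.6% on day 7, then 32.2%, 31.1% and 39.7% on day 10, against at most 0.612% of macrophage-like cells. Cplx1 went from 1.72% to 2.36% on day 4 to 7.94% to 11.2% on day 10, against at most 0.408%. These shares did not overlap between days for Snap25, Syp and Cplx1. Intervals cover counting error only, and free RNA in the droplets was not modelled.

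A thinned neuron-like cell held UMI of a median of 7 to 11 different members per library, and a fibroblast-like or macrophage-like cell of 1. Snap25 and Syt1 were found together in 36.4% to 38.3% of thinned neuron-like cells on day 4, then 47.6% to 55.3% on day 7, then 59.7% to 67.8% on day 10. In the 2496 cells of the cluster led by Wnt4 and Syt13, Syt13 had a UMI in 35.5% of thinned cells and Snap25 in 1.25%.

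**Figure D5:**
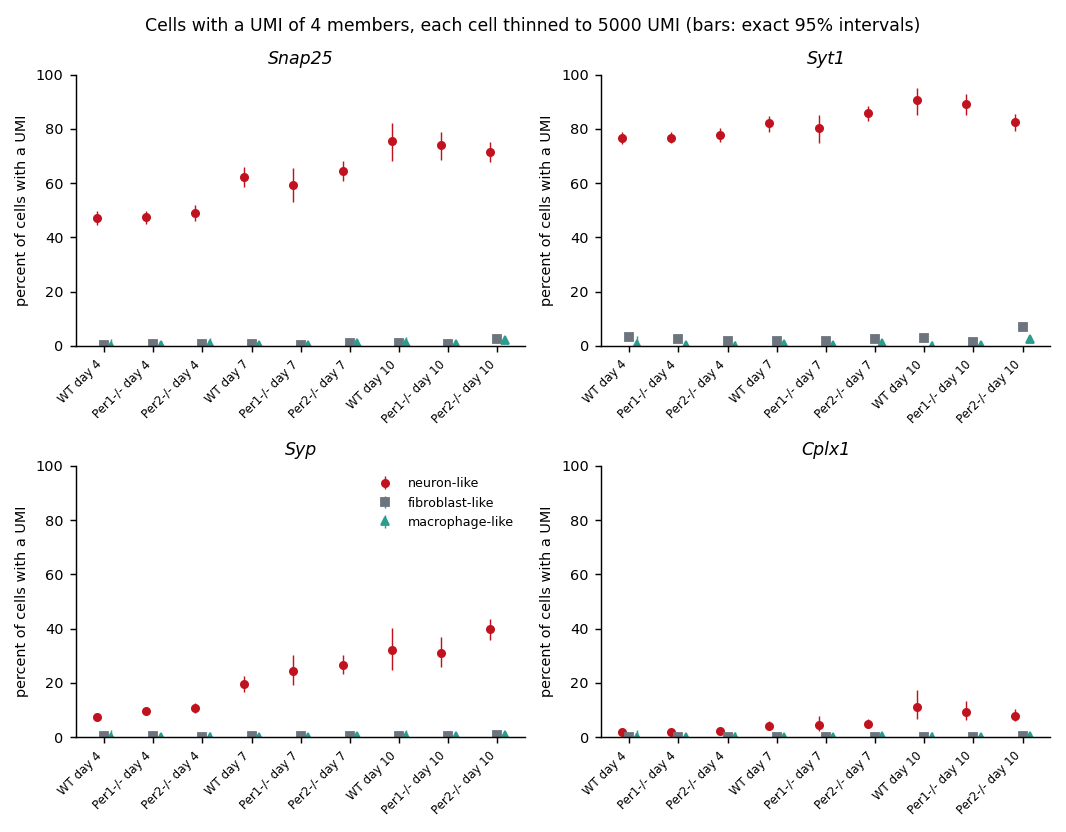
Percent of cells with a UMI of Snap25, Syt1, Syp or Cplx1 in each library after thinning to 5000 UMI per cell, in neuron-like (circles), fibroblast-like (squares) and macrophage-like cells (triangles), with exact 95% intervals that cover counting error only. Neuron-like shares of Snap25 lie between 47.0% and 75.7%, and those of macrophage-like cells do not exceed 2.24%.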

How the data were processed

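The authors deposited 1 matrix of raw UMI counts per library with its genes and barcodes, from Cell Ranger 7.1 on mm10 per the submitters' processing notes, although the file headers name 4.0.0 (days 4 and 7) and 6.0.0 (day 10). The 30406 identifiers common to all tables were kept, and 0 columns belonged to other samples. Of 95603 barcodes, 81999 reached 3000 UMI with a mitochondrial share of no more than 20%, and of these 8442 that ranked highest against simulated doublets (0.8% per 1000 barcodes) were left out. Cells were clustered with scanpy 1.11.5 and leidenalg 0.10.2 (2000 variable genes, 30 components, 15 neighbours, resolution 1) without 115 genes, which were the member, other pathway and mitochondrial genes, although genes that vary with the members took part. A cluster was named where at least 3 fixed markers of a class were 2-fold higher in at least 10% of its cells and the markers' mean log2 fold was at least 1. It was also fibroblast-like where at least 10 of 16 fibroblast markers were found in at least 50% of its cells, their mean level reached 1/3 of the highest seen in any cluster, and no other class had a mean log2 fold over 0.5. This second condition was set after the clusters were seen.

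UMI were summed per class and library (CPM: per 1000000 of the summed UMI). edgeR 4.0.16 (TMM, filterByExpr, quasi-likelihood test, two-sided, Benjamini-Hochberg over all genes tested, threshold 0.05) was fitted with library and class, with genotype and day, or with library and class by day. It was tested on simulated data: for Per1-/- against WT in neuron-like cells, over 13874 genes, it recovered 52.0% of 1.5-fold and 80.0% of 2-fold changes. The simulation changed 200 genes at once, held no day effect and gave 14 false calls. These shares therefore do not apply to a change in few genes. Members that failed the filter were Slc32a1 in the fibroblast-like class comparison, Slc17a7 and Slc18a3 in the macrophage-like one, and Slc17a7, Slc32a1 and Slc18a3 in the neuron-like fits. The SE of an edgeR log2 fold was its absolute value divided by the square root of the quasi-likelihood F statistic. Intervals of shares are exact Clopper-Pearson (95%). A count of 0 allows up to 3 counts. Alternatives were DESeq2 1.42.0, no TMM, no filter on low counts, no genotype or day term, a Y-linked covariate, doublets kept, day 10 left out, each library left out and other thinning.

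Snap25, Stx1a, Vamp1, Vamp2, Syt1, Syp, Syn1, Cplx1 and Cplx2 were to be given in every library, and in each comparison up to 8 called members of smallest adjusted p in each direction, or else the 3 of smallest p. Members, lists and tests were chosen with earlier results of these data known.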

Additional observations from a re-analysis of the deposited data

Results flagged for a closer look

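The change of 8 members between days 4 and 7 differed between neuron-like and fibroblast-like cells by a test of the difference itself, within libraries (edgeR). These were 8 of 43 members, close to the 17.6% of all 17225 genes called in either direction. All 8 were called higher, where 7.59% of all genes were called higher and 9.98% lower. The larger rise was in neuron-like cells for each of them. On the log2 scale the difference was 2.02 ± 0.30 (SE) for Sv2c (edgeR adjusted p = 0.0018), 1.96 ± 0.27 for Syt4 (adjusted p = 0.0013), 1.45 ± 0.34 for Syt5 (adjusted p = 0.015) and 1.19 ± 0.32 for Syp (adjusted p = 0.028). It was 1.17 ± 0.14 for Sv2a (adjusted p = 0.00049), 0.73 ± 0.11 for Rab3a (adjusted p = 0.0021), 0.65 ± 0.09 for Dnm1 (adjusted p = 0.0011) and 0.38 ± 0.07 for Nsf (adjusted p = 0.0050). The calls of Syt5 and Syp were lost without WT day 4, Per1-/- day 4, WT day 7 or Per2-/- day 7 (edgeR adjusted p = 0.062 to 0.065 for Syt5 and 0.083 to 0.105 for Syp). Between days 7 and 10 the same test, which called 4.05% of all genes, passed for 2 members, more positive in neuron-like cells, which were Dnm1 (0.66 ± 0.09, edgeR adjusted p = 0.0057) and Nsf (0.41 ± 0.07, adjusted p = 0.015), and that of Nsf was lost without WT day 7 (adjusted p = 0.055).

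Members were also counted in clusters that no comparison used, above their level in macrophage-like cells. A cluster of 1916 cells led by the reprogramming factor Pou3f2 showed 1 of the 20 neuron markers. With its libraries summed, Pclo was at 566 CPM there (exact Poisson 95% interval 558 to 574, counting error only), against 358 in neuron-like and 2.34 in macrophage-like cells. Syt1 was at 267 CPM (262 to 273; neuron-like 415, macrophage-like 1.48) and Rims2 at 68.7 (65.9 to 71.5; 73.5 and 0.677). After thinning to 5000 UMI, 87.1% of its cells had a UMI of Pclo, 62.4% of Syt1 and 13.4% of Snap25.

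A cluster of 1341 cells led by Pmch and Tac1, with 0 of the 20 neuron markers, held Rims2 at 223 CPM (217 to 228), above the neuron-like 73.5. Syt1 was at 282 CPM there (276 to 289), and Rab3b at 4.59 (3.83 to 5.45; macrophage-like 0.391). Per library Rab3b was at 2.5 to 8.66 CPM there, on 3 to 39 UMI, and at 1.18 to 11.8 in neuron-like cells, with the cluster lower in WT day 7 and WT day 10. Rims2 had a UMI in 61.6% of its thinned cells, Syt1 in 57.6% and Snap25 in 3.68%. These levels were not tested between clusters.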

How the results depend on the processing

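With 1 library left out at a time, 40 to 41 members were called between neuron-like and fibroblast-like cells, 40 to 43 against macrophage-like cells, 15 to 24 for day 7 against day 4 in neuron-like cells (15 without WT day 4), 11 to 15 for day 10 against day 7, 0 to 1 at each step in fibroblast-like cells (at the first step 1 without Per1-/- day 4), 0 between genotypes, 6 to 11 for the difference of day effects at the first step and 1 to 4 at the second (1 without WT day 7, 4 without Per2-/- day 10). The shares of all genes called in these reduced fits are not given, so the counts do not tell a loss among members from one over all genes. Those against macrophage-like cells include members that passed the filter through their neuron-like sums alone. DESeq2 called 4 members in fibroblast-like cells for day 7 against day 4, where it called 8.44% of all genes, and 5 for the second difference of day effects, where it called 7.83%. Without TMM factors the latter count was 1 (Nsf 0.29, edgeR adjusted p = 0.062), Rab3b and Sv2b lost their class calls (-0.22 and -0.28), Rab3d, Slc17a7 and Sv2c gained 1 each, and over all genes 189 rather than 388 differences were higher and 564 rather than 310 lower. Without a filter on low counts 1 member was called for Per1-/- against WT (Rab3b, -1.05, edgeR adjusted p = 0.046) and 1 for Per1-/- against Per2-/- (Syt6, 0.66). DESeq2 did not call Syn3 for day 10 against day 7 (adjusted p = 0.11), and without a genotype term edgeR did not call Syt6 (adjusted p = 0.069). Among alternatives chosen after seeing the data, fibroblast-like cells without 2 clusters turned Sv2b to 1.31 (edgeR adjusted p = 0.0043) and left 0 calls for day 10 against day 7, and the Scg2 and Vgf cluster alone gave 8 calls for that step in neuron-like cells, with Syn1 at -0.087 and Syt6 at 3.19 (0 to 6 UMI per library on day 7, and the filter was passed through day 10 alone). The cause of these changes was not tested. Shares of neuron-like cells, thinned to 5000 UMI, unthinned and thinned to 3000 UMI, were 54.9%, 77.7% and 39.9% for Snap25, 79.7%, 92.4% and 65.0% for Syt1, 16.4%, 32.3% and 10.9% for Syp, and 3.54%, 10.1% and 2.22% for Cplx1. Of the values for the genes named by rule in a comparison, under the alternatives, 986 kept direction and side of the threshold, 40 kept direction and lost the call, 4 gained it and 3 changed sign. For day 10 against day 7 in neuron-like cells 141 stayed, 17 lost the call and 2 changed sign. In fibroblast-like cells at that step 6 stayed and 9 lost the call. The 986 include the genotype comparisons, in which no member was called by the main fit. No paired analysis was possible because each genotype and day held 1 library, all numbered replicate 1, which concerns pairing by replicate number alone. The day comparisons had genotype as a term, and the class comparisons and the difference of day effects had library.

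Depth limits the low members most. Slc17a7, Slc18a3 and Slc32a1 rested on few or no UMI in neuron-like cells, where a count of 0 allows up to 3 UMI per library.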

Other observations

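Members with their highest pooled level outside neuron-like cells gave further patterns, chosen after their values were seen and not tested. In skeletal muscle-like cells Sv2b, a vesicle glycoprotein, was at 24.0, 26.8 and 22.5 CPM on day 4 in WT, Per1-/- and Per2-/- cultures, 17.1, 16.1 and 22.9 on day 7, and 12.1, 9.04 and 17.5 on day 10, so that each day 10 library lay below each day 4 library. Cplx1 went the other way in the same cells, from 1.64, 2.58 and 3.94 CPM on day 4 to 9.39, 5.42 and 11.0 on day 7 and 15.9, 14.3 and 19.5 on day 10. Rab3b was at 7.17 to 22.5 CPM per library in Schwann-like cells and at 1.18 to 11.8 in neuron-like cells, with the Schwann-like value above the neuron-like value of the same library in all 9.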
